A study of Mus musculus with 12 samples.

Results

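Glutathione and antioxidant defence genes were followed in hearts of wild-type mice and of apelin gene-deficient (knockout) mice, with and without pressure overload. The list names 40 genes for glutathione synthesis and use, the thioredoxin system, superoxide dismutases, catalase, peroxiredoxins, oxidase subunits and metallothioneins. A gene was represented by its probe set (a group of short probes for the same transcript) with the highest mean over all arrays, among the probe sets annotated to that gene alone. Of the 40 genes, 37 had such a probe set, out of 18193 genes in all, and 34 were among the 10916 genes tested, which are the upper 60% by mean value. Gsta3, Hmox1 and Nox4 lay under that filter, Prdx1 had only probe sets annotated to several genes, and no probe set was listed for Prdx5 and Prdx6. The filter used the mean over all 12 arrays, so the 34 tested genes are not all the members.

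Heart RNA was measured on 12 Affymetrix arrays in 4 groups of 3, labelled wild type with sham operation, wild type with aortic banding, KO with sham operation and KO with aortic banding. Banding narrows the aorta, so that the left ventricle pumps against a raised pressure. The labels call the arrays biological replicates and do not say whether each is a separate animal, so the p-values measure the spread between these arrays. The sources used here do not give strain, age, sex, the time after banding or the way the apelin gene was inactivated. The tissue is heart, which holds several cell types, so fewer cells of a type and less RNA per cell cannot be told apart. The sources used here do not say which parts of the heart were taken.

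Superoxide dismutases turn superoxide into hydrogen peroxide, and catalase, the glutathione peroxidases and the peroxiredoxins remove the peroxide. Peroxidases draw their electrons from glutathione or thioredoxin, which glutathione reductase and the thioredoxin reductases recharge with NADPH. Glutathione transferases join glutathione to reactive molecules such as products of lipid oxidation. Many of these genes are switched on through the transcription factor Nrf2, which binds antioxidant response elements together with small Maf proteins. Heart muscle is rich in mitochondria, a main source of superoxide, and NADPH oxidases are another source under load.

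Values are linear intensities as deposited, and a level can be compared between arrays for the same probe set but not between genes. With the extreme 2% at either end trimmed, every array had a mean of 150, and the correlation between arrays was 0.962 to 0.984 within groups and 0.944 to 0.98 between groups. Atrial tissue differed between arrays within groups, since Myl7, an atrial myosin light chain, ran from 3.44 to 7621. The heart muscle markers Myh6, Tnnt2, Tnni3 and Actc1 read at least 7702 on every array. Apln, the targeted gene, read 333, 324 and 212 in wild-type sham, 205, 223 and 255 in wild-type banded, 63.7, 111 and 85.4 in knockout sham and 271, 123 and 160 in knockout banded arrays. The first of the knockout banded arrays therefore lay in the wild-type range for Apln and is called the array labelled knockout banded 1. It also held the airway transcript Scgb1a1 at 1094, against at most 49.9 on the other 11 arrays, and Scgb3a2 at 410, against at most 51.8. The other lung markers listed, Sftpc, Sftpb, Sftpa1 and Sftpd, read 49.2, 54.3, 30.4 and 37.3 there, within the range of the other arrays. Myh7, a myosin gene raised by load, read 5182, 1109 and 1361 in wild-type sham and 10040, 6718 and 1918 in wild-type banded arrays. Individual wild-type arrays thus overlapped for this marker of load. In knockout it read 1132, 1656 and 1128 in sham and 9203, 9324 and 9091 in the arrays labelled knockout banded 1, 2 and 3, without overlap.

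**Figure D1:**
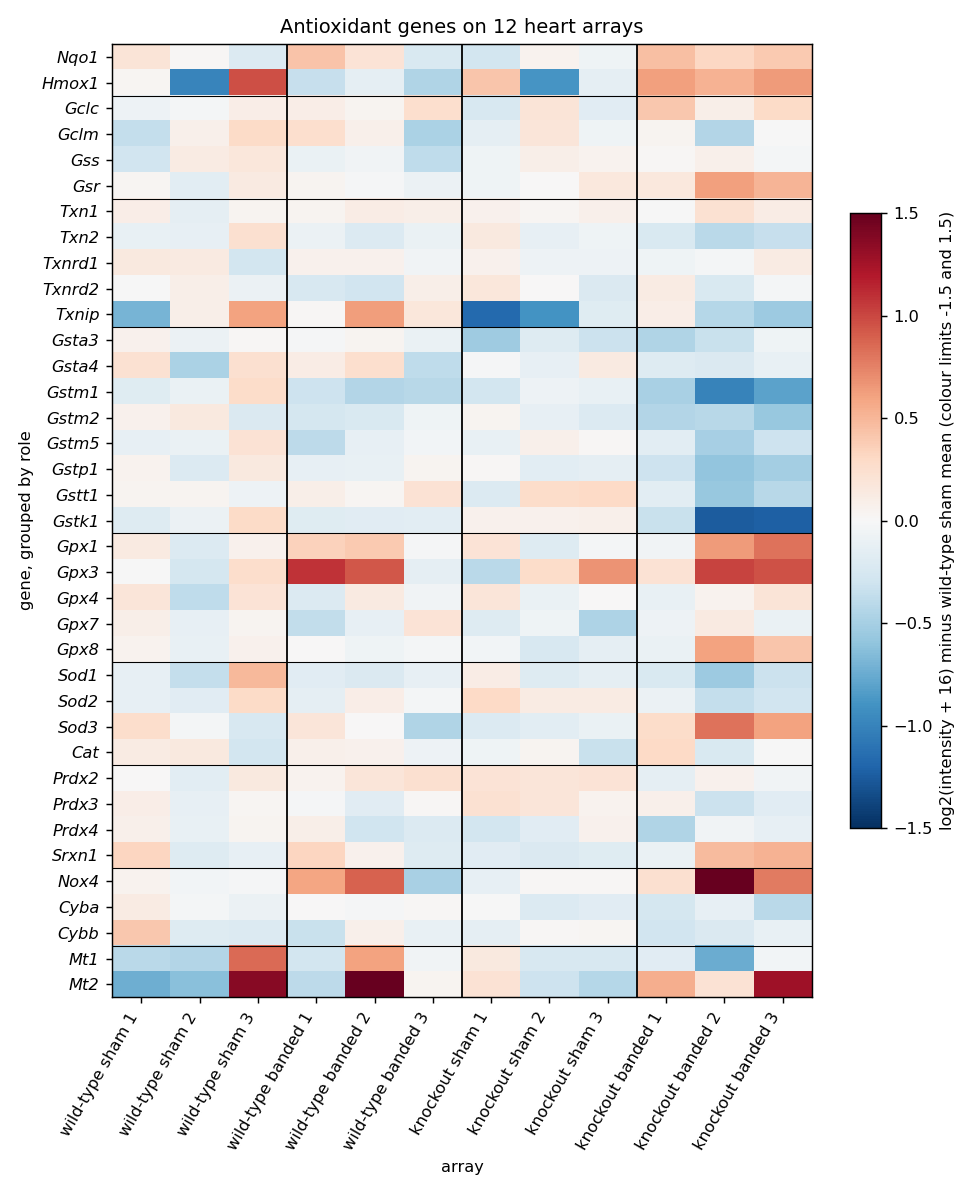
Log2(intensity + 16) of the 37 measured genes (rows, grouped by role) on each of the 12 arrays (columns), minus the mean of the 3 wild-type sham arrays of the same gene (red higher, blue lower). Gstk1 and Gstm1 are bluest in knockout banded 2 and 3, where Gsr, Gpx8 and Sod3 are red, and Mt1 and Mt2 are red in wild-type sham 3 and wild-type banded 2.

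In knockout hearts a pair of glutathione transferases, Gstk1 and Gstm1, fell with banding and the extracellular superoxide dismutase Sod3 rose. Differences are of log2(intensity + 16), banded minus sham, with the standard error (SE) of a linear model in limma fitted to all arrays, and passing means an adjusted p (Benjamini-Hochberg, over all 10916 genes) under 0.05. Of 34 members tested 1 rose (beside 2.05% of all genes), 2 fell (beside 1.76%) and 31 did not pass. That is 8.82% of the members, beside 3.81% of all genes tested. An unadjusted p under 0.05 was found for 17 members, or 50% of them, beside 21.1% of all genes. The arrays of the groups did not overlap for 9 members that were lower after banding (26.5%, beside 14.4% of all genes) and for 3 that were higher (8.82%, beside 12.2% of all genes). The median difference of the 34 members was -0.06, beside -0.02 for all genes tested, and 19 of the 34 were below 0.

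This count rested on single arrays, and so did the count over all 10916 genes, which was 416 with every array. Without the array labelled knockout banded 1 it was 11, beside 13.2% of all genes, with 5 higher (6.25% of all genes) and 6 lower (6.95%). It was 0 without knockout banded 2, knockout banded 3, knockout sham 2 or knockout sham 3, where 17, 11, 40 and 9 of all genes passed in that order. It was 1 without knockout sham 1 or wild-type banded 2, beside 88 and 315 of all genes, and 5 without wild-type sham 3, beside 415. It was 2 without wild-type sham 2, wild-type banded 1 or wild-type banded 3, beside 357, 332 and 326 of all genes. Gstk1 did not pass without any 1 of the knockout sham arrays or knockout banded 2 or 3 (-1.01 to -0.85, adjusted p up to 0.112). Sod3 did not pass without any 1 of the same 5 knockout arrays, wild-type sham 2 or wild-type banded 2 (0.59 to 0.75, adjusted p up to 0.202). Gstm1 did not pass without any 1 of those 5 knockout arrays or any wild-type banded array (-0.67 to -0.49, adjusted p up to 0.181). The 11 were Gsr, Gpx1, Gpx8, Sod3 and Srxn1, which were higher, and Gstm1, Gstp1, Gstt1, Gstk1, Sod2 and Prdx3, which were lower. The array labelled knockout banded 1 lay nearer to the knockout sham mean than to the mean of the other knockout banded arrays for 21 of the 34 members (61.8%), beside 58.4% of all genes.

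Other measures were set beside this comparison, and some moved with it. The summed intensity of 8 heart muscle markers, all 8 matched and none at 0, was 80530 to 88680 in knockout sham and 65800 to 67250 in the arrays labelled knockout banded, and 1 of the 8, Ryr2, passed downward. The 6 fibroblast markers, all matched and none at 0, summed to 6917 to 8361 in knockout sham and to 7265 to 12900 in banded arrays. Col1a1 and Col3a1 passed upward. Of the other fibroblast markers, the knockout mean of Pdgfra went from 314 in sham to 431 in banded arrays and that of Lum from 902 to 1038. The mean of Tcf21 was nearly level, at 166 and 168.5, and that of Dcn was lower, at 5002 and 4707. The 6 endothelial markers, all matched and none at 0, summed to 2701 to 2935 in knockout sham and to 3042 to 3378 in banded arrays without overlap, and none passed. As a sign of RNA quality, the Actb control probe sets (3' end over 5' end, log2) gave -0.0097 to 0.30 in knockout sham and -0.22 to -0.17 in knockout banded arrays. The same ratio of Gapdh overlapped, at -0.37 to -0.33 in knockout sham and -0.34 to -0.32 in knockout banded arrays. Their part in the results was not tested.

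**Figure D2:**
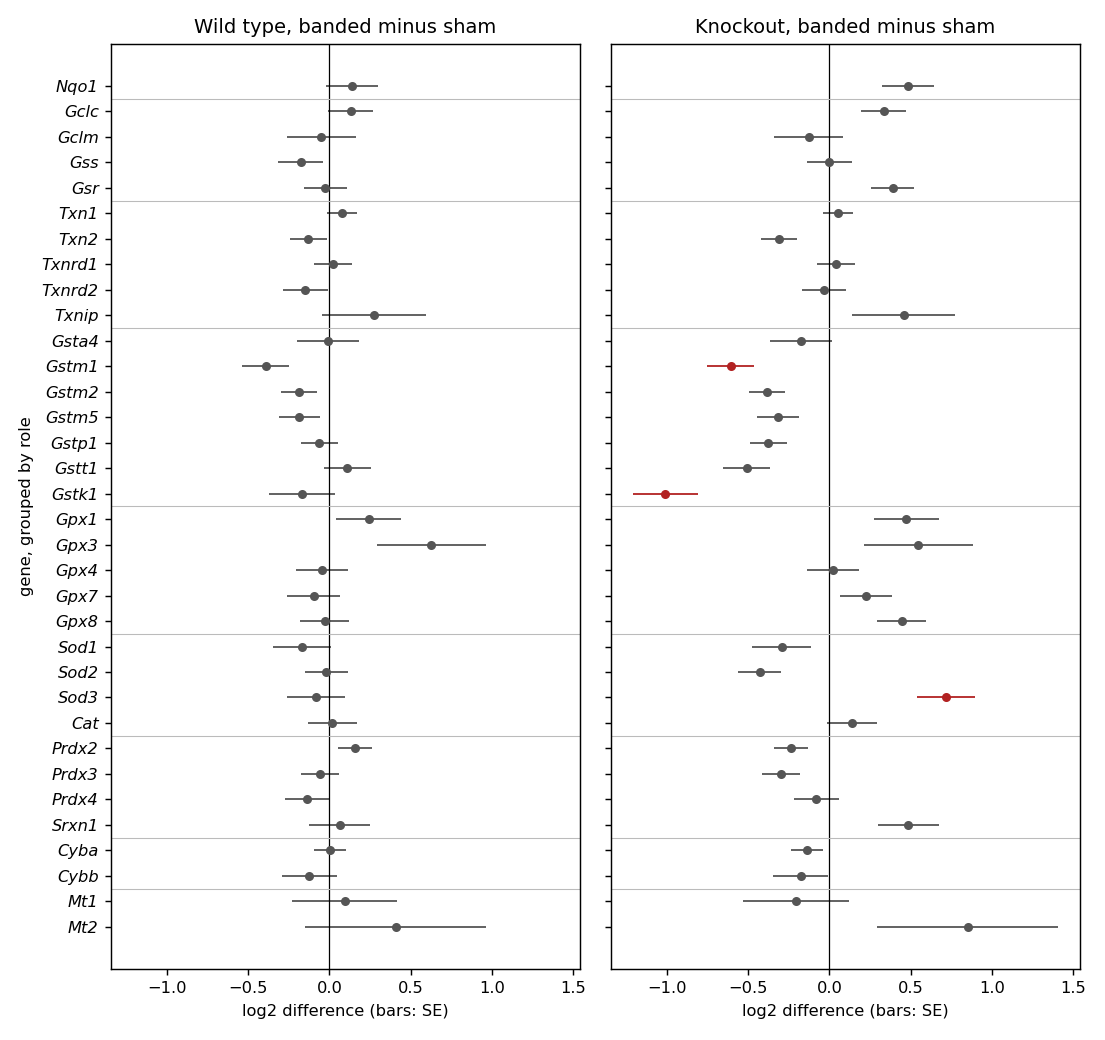
Log2 difference, banded minus sham, of the 34 tested genes (rows, grouped by role) in wild type (left) and knockout (right); points are the model's estimates, bars are 1 SE, and red points passed at an adjusted p under 0.05. In knockout, Gstk1 at -1.01 and Gstm1 at -0.61 are the red points on the left and Sod3 at 0.72 the red point on the right, and no point in wild type is red.

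Gstk1, the kappa-class transferase of mitochondria and peroxisomes, read 1380, 1381 and 1389 in knockout sham arrays and 1038, 545 and 554 in the arrays labelled knockout banded 1, 2 and 3. The groups did not overlap, and the array labelled knockout banded 1 lay between the sham arrays and the other banded arrays. Gstk1 fell by 1.01 on the log2 scale (SE 0.20, adjusted p = 0.0225). In wild-type hearts Gstk1 read 1145, 1234 and 1615 in sham and 1161, 1171 and 1174 in banded arrays, a difference of -0.17 (SE 0.20). These wild-type groups overlapped. The difference between the genotypes' responses, the interaction, was -0.84 for Gstk1 (SE 0.29, adjusted p = 0.446 in limma). It was -1.14 without the array labelled knockout banded 1 (SE 0.17, adjusted p = 0.00776) and -0.68 without knockout banded 2 (adjusted p = 0.809).

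Gstm1, a cytosolic mu-class transferase, read 1758, 2031 and 1975 in knockout sham and 1526, 1061 and 1220 in the arrays labelled knockout banded. In wild type it read 1881, 2004 and 2598 in sham and 1720, 1569 and 1598 in banded arrays. For this probe set every banded array lay below every sham array, in each genotype and over both together. In wild type the same held for 6.17% of all genes. Gstm1 fell by 0.61 in knockout hearts (SE 0.14, adjusted p = 0.0397) and was at -0.39 in wild type (SE 0.14, adjusted p = 0.921). The second probe set of Gstm1 gave -0.52 in knockout, and the dimmer ones -0.01 and -0.16. In wild type the same probe sets gave -0.36, 0.42 and -0.25 in that order, so 1 of them lay on the other side of 0. When its probe sets were averaged, the Gstm1 difference was -0.33 (adjusted p = 0.262). The mu-class genes are related genes that lie close together on chromosome 3. The probe set used for Gstm1 is of a type marked as able to bind related transcripts, so its signal may be shared between them.

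The other tested transferases lay on the same side of 0 in knockout hearts, and none of those passed. All 7 were below 0, with differences from -1.01 to -0.17 and a median of -0.38, while 53.1% of all genes tested were below 0. Gstp1, the pi-class enzyme, read 2860, 2542 and 2580 in knockout sham and 2286, 1883 and 1986 in banded arrays, a difference of -0.38 (SE 0.11, adjusted p = 0.0844). Gstt1, the theta-class enzyme, read 201, 287 and 293 in sham and 208, 153 and 171 in banded arrays, and the groups overlapped through knockout sham 1 (-0.51, adjusted p = 0.0722). Gstm2 was at -0.38 (adjusted p = 0.0771) and Gstm5 at -0.32 (adjusted p = 0.176), both with no overlap between groups. Gsta4, which conjugates the lipid oxidation product hydroxynonenal, was at -0.17, with arrays of 756 to 908 in sham and 704 to 762 in banded hearts. In wild type 6 of the 7 transferases were below 0, beside 55.8% of all genes, with differences from -0.39 to 0.11. Gsta3, under the filter, read 24.4 to 45.6 over the 12 arrays.

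**Figure D3:**
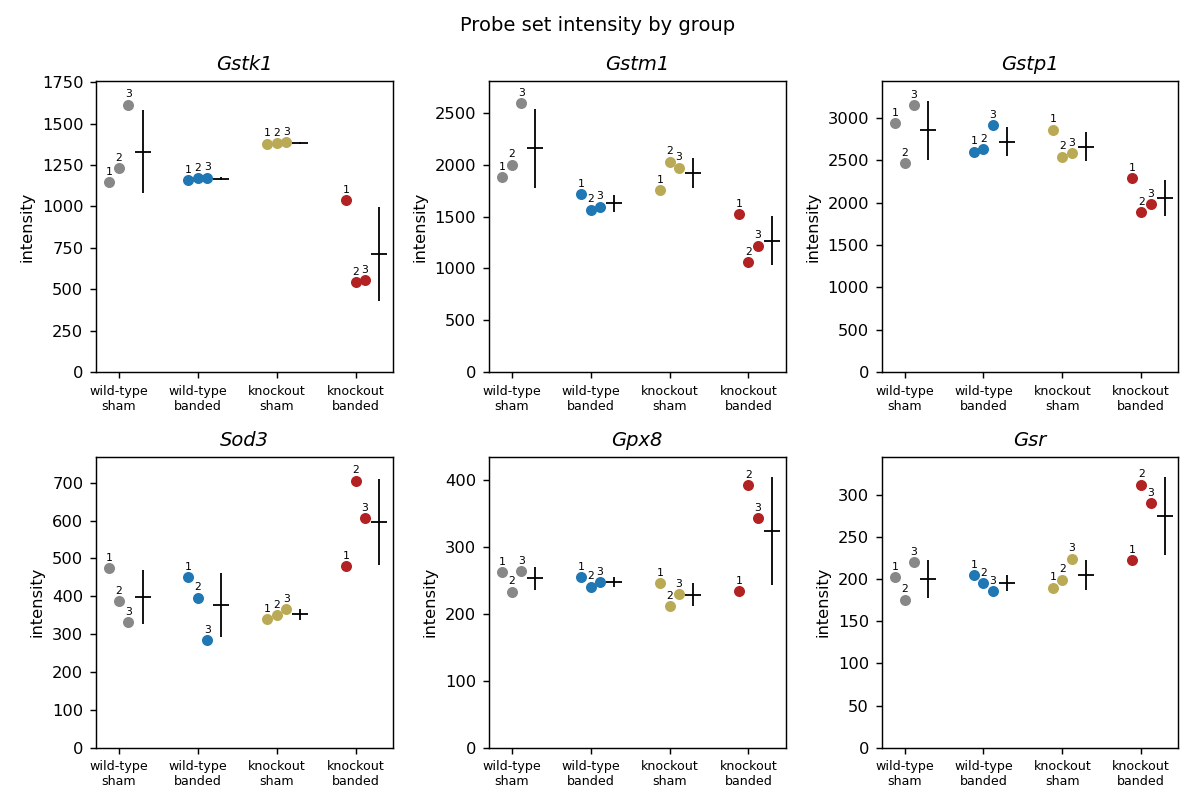
Intensity of 6 genes on each array (points, numbered by replicate, coloured by group) with the group mean and SD beside them (black bar, n = 3); every axis starts at 0. Gstk1 reads 545 and 554 in knockout banded 2 and 3 and at least 1038 on every other array, and Sod3, Gpx8 and Gsr are highest in the same pair of arrays.

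The glutathione peroxidases lay on the other side: all 5 were above 0 in knockout hearts after banding, from 0.02 to 0.55 with a median of 0.44, and none passed. Gpx8, a peroxidase of the endoplasmic reticulum, read 245, 212 and 229 in knockout sham and 234, 392 and 343 in the arrays labelled knockout banded. Its groups overlapped only through the array labelled knockout banded 1. The difference of Gpx8 was 0.44 (SE 0.15, adjusted p = 0.115), and 0.65 without that array (SE 0.11, adjusted p = 0.00279). In wild type Gpx8 read 233 to 264 in sham and 240 to 255 in banded arrays, a difference of -0.03. The interaction for Gpx8 was 0.47 and did not pass (SE 0.21, adjusted p = 0.542 in limma). Without the array labelled knockout banded 1 it was 0.68 (SE 0.15, adjusted p = 0.0419).

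Gpx1, the main cytosolic peroxidase, read 1144, 865 and 968 in knockout sham and 954.5, 1547 and 1761 in the arrays labelled knockout banded. It was at 0.47 (SE 0.20, adjusted p = 0.198), and at 0.73 without the array labelled knockout banded 1 (SE 0.16, adjusted p = 0.0102). In wild type Gpx1 read 1092, 856 and 1039 in sham and 1262, 1309 and 979 in banded arrays. Red cells also carry this enzyme, and the erythroid gene Alas2 read 331 to 734 in wild-type sham, 1286, 1433 and 286 in wild-type banded, 504, 1161 and 708 in knockout sham and 574, 1342 and 1410 in knockout banded arrays. The 4 arrays with the highest Gpx1 were also the 4 with the highest Alas2, and the part of red cells was not tested. Of the 6 erythroid markers 3 were matched, with summed intensities of 539 to 1252 in knockout sham and 645 to 1507 in banded arrays. Slc4a1 was also highest on those 4 arrays, at 93.5 and 118 in wild-type banded 1 and 2 and 96.2 and 92.1 in knockout banded 2 and 3. It read at most 62.7 on the others. Hba-a1 read at most 34.2 on any array, by a dim single-gene probe set, so globin RNA is not judged from it.

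Gpx3, the secreted peroxidase of plasma, read 2635, 2193 and 3171 in wild-type sham, 5593, 5052 and 2395 in wild-type banded, 1985, 3203 and 4211 in knockout sham and 3064, 5343 and 5108 in knockout banded arrays. The differences of 0.63 in wild type and 0.55 in knockout had SEs of 0.34 and did not pass (adjusted p = 0.921 and 0.375). The wild-type difference of Gpx3 was 0.40 without wild-type banded 1 and 1.01 without wild-type banded 3. Fat also makes this enzyme, and the fat-specific Adipoq read 7.04, 32.8 and 33.9 in wild-type sham, 327, 21.1 and 7.06 in wild-type banded, 3.63, 49.95 and 35.8 in knockout sham and 392, 25.5 and 103 in knockout banded arrays. Adipoq was thus high on wild-type banded 1, where Gpx3 was highest, and on the array labelled knockout banded 1, where Gpx3 was the lowest of its group. The 4 matched of 6 adipocyte markers, none at 0, summed to 6027 to 7693 in knockout sham and 5636 to 7214 in banded arrays. Most of it was Fabp4, at 5606 or more. The atrial gene Myl7 read 443.5, 689 and 5785 in wild-type sham and 7621, 5699 and 19.6 in wild-type banded arrays. In knockout it read 3.44, 3549 and 6103 in sham and 3060, 896 and 1070 in banded arrays. Gpx3 and Myl7 ranked the arrays alike within wild-type banded and knockout sham, but not within knockout banded or wholly within wild-type sham. The parts of fat and of atrial tissue were not tested. Gpx4, which reduces lipid peroxides in membranes, was at 0.02 in knockout with arrays of 4289 to 5280 in banded hearts. Gpx7, another peroxidase of the endoplasmic reticulum, was at 0.23 (adjusted p = 0.455).

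Among the dismutases, the extracellular and the mitochondrial gene lay on opposite sides in knockout hearts. Sod3, which protects the matrix outside cells, read 340, 351 and 367 in knockout sham and 479, 706 and 607 in the arrays labelled knockout banded. The groups did not overlap. Sod3 rose by 0.72 (SE 0.18, adjusted p = 0.0455), and the dimmer of its probe sets gave 0.35. Among 11 other settings that kept every array, Sod3 passed with the upper 40% of genes and with either other pseudocount, and not with the other 8 (0.53 to 0.76, adjusted p up to 0.0869). In wild type Sod3 read 475, 387 and 332 in sham and 450, 396 and 284 in banded arrays, a difference of -0.08, and the interaction of 0.80 did not pass (SE 0.25, adjusted p = 0.442).

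Sod2, the manganese enzyme of mitochondria, read 6025, 5358 and 5344 in knockout sham and 4615, 3831 and 4003 in banded arrays. Its groups did not overlap, and the difference was -0.43 (SE 0.13, adjusted p = 0.088). The other 3 probe sets of Sod2 gave -0.62 to -0.37. Sod2 in wild type read 4367 to 5968 in sham and 4475 to 5270 in banded arrays, a difference of -0.02. The knockout difference of Sod2 was -0.51 without the array labelled knockout banded 1 (adjusted p = 0.0399). Sod1, the copper-zinc enzyme of the cytosol, was at -0.29 in knockout (adjusted p = 0.368), with arrays of 2757 to 3419 in sham and 2149 to 2685 in banded hearts. Catalase, Cat, read 1988, 2142 and 1652 in knockout sham and 2556, 1779 and 2076 in banded arrays and was at 0.14 (adjusted p = 0.646).

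The genes that make and recycle glutathione did not pass in any comparison of all 12 arrays. Gsr, glutathione reductase, read 190, 199 and 224 in knockout sham and 223, 312 and 290 in the arrays labelled knockout banded. In wild type it read 203, 176 and 220 in sham and 204, 195 and 185 in banded arrays. The knockout difference of Gsr was 0.39 (SE 0.13, adjusted p = 0.112), and 0.53 without the array labelled knockout banded 1 (SE 0.12, adjusted p = 0.0151). The second probe set of Gsr gave 0.45 over all arrays. Gclc, the catalytic subunit of the rate-limiting ligase of glutathione synthesis, read 108, 151 and 114 in knockout sham and 177.5, 139.5 and 162 in banded arrays (0.33, adjusted p = 0.189). Gclm, its modifier subunit, read 149, 189 and 157 in sham and 170, 118 and 164 in banded arrays (-0.13). The dimmer probe set of Gclm lay on the other side of 0, at 0.18. Gss, glutathione synthetase, was at -0.001.

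Of the thioredoxin genes, Txn1, the cytosolic thioredoxin, was at 0.05 in knockout hearts after banding, and its dimmer probe set at -0.19. The reductases Txnrd1 (cytosol) and Txnrd2 (mitochondria) were at 0.04 and -0.03. The other probe sets of Txnrd2 gave -0.19, -0.08 and, for the dimmest, 0.53. Txn2, the mitochondrial thioredoxin, read 1316 to 1580 in sham and 1081 to 1219 in banded arrays, without overlap, and was at -0.31 (SE 0.11, adjusted p = 0.142). Its other probe sets gave -0.23 and -0.09. Txnip, which binds thioredoxin and blocks it, varied widely and is described with the metallothioneins.

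Of the peroxiredoxins, the mitochondrial Prdx3 read 3029, 2925 and 2667 in knockout sham and 2710, 2048 and 2284 in banded arrays (-0.30, adjusted p = 0.162). The difference of Prdx3 was -0.41 without the array labelled knockout banded 1 (adjusted p = 0.035). Prdx2, the cytosolic form, was at -0.24 (adjusted p = 0.209), with arrays of 4403 to 4476 in sham and 3535 to 4073 in banded hearts. Prdx4, of the secretory pathway, was at -0.08. Srxn1, sulfiredoxin, which repairs over-oxidised peroxiredoxins, read 173, 167 and 172 in knockout sham and 182, 280 and 288 in the arrays labelled knockout banded. Its groups did not overlap, the difference was 0.49 (SE 0.19, adjusted p = 0.16), and without the array labelled knockout banded 1 it was 0.69 (adjusted p = 0.022). Over all arrays the other probe sets of Srxn1 gave 0.34, 0.47 and, on the other side of 0, -0.13. Srxn1 in wild type read 250, 169 and 178 in sham and 249, 206 and 170 in banded arrays. The 5 probe sets shared by Prdx1 and Gm21399 were at -0.39 to 0.06 in knockout hearts, and none passed among the 932 probe sets with several genes.

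Nqo1, a quinone reductase and a common Nrf2 target, read 305, 388 and 356 in knockout sham and 519, 466 and 497 in the arrays labelled knockout banded. Here the array labelled knockout banded 1 was the highest, and the groups did not overlap. The difference of Nqo1 was 0.48 (SE 0.16, adjusted p = 0.104). In wild type Nqo1 read 430, 378 and 322 in sham and 509, 435 and 318 in banded arrays, with overlap. Hmox1, heme oxygenase, read 60.5, 15.1 and 36.2 in knockout sham and 71.7, 66.4 and 73.4 in the arrays labelled knockout banded. It lay under the filter, and in a fit of all single-gene probe sets Hmox1 was at 0.79 (adjusted p = 0.438). Its wild-type sham arrays alone ran from 12.9 to 96.3.

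Nox4, an oxidase that makes hydrogen peroxide, read 20.3, 24.1 and 23.9 in knockout sham and 30.8, 106 and 51.7 in the arrays labelled knockout banded. In wild type Nox4 read 25.0, 22.5 and 23.1 in sham and 43.7, 57.0 and 12.3 in banded arrays, so that 5 of 6 banded arrays lay above all 6 sham arrays and wild-type banded 3 lay below them. Nox4 also lay under the filter and gave 0.91 in knockout in the fit of all single-gene probe sets (adjusted p = 0.277), with 1.03 for its dimmer probe set. Cybb, the catalytic oxidase subunit of phagocytes, read 119, 134 and 135 in knockout sham and 105, 111 and 121 in banded arrays (-0.18). Cyba, the membrane partner of these oxidases, was at -0.14. The 8 macrophage markers, all matched and none at 0, summed to 3480 to 4117 in knockout sham and 3244 to 4929 in banded arrays, and none passed.

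The metallothioneins, small metal-binding proteins that also scavenge radicals, varied more within groups than between them. Mt1 read 2355, 2291 and 5649 in wild-type sham, 2586, 4768 and 3008 in wild-type banded, 3463, 2640 and 2648 in knockout sham and 2784, 1857 and 3034 in knockout banded arrays. Mt2 read 291, 314 and 1296 in wild-type sham, 372, 1506 and 509 in wild-type banded, 578, 394 and 363 in knockout sham and 728, 576 and 1214 in knockout banded arrays. The same arrays, wild-type sham 3 and wild-type banded 2, were highest for both genes. Txnip was also highest there: it read 1955, 3373 and 4830 in wild-type sham, 3223, 4910 and 3568 in wild-type banded, 1409, 1691 and 2788 in knockout sham and 3399, 2351 and 2166 in knockout banded arrays. The neutrophil gene S100a8 read 391 and 877 on those arrays and at most 242 on the others. S100a9, another neutrophil marker, read 408 and 1041 there and at most 350 on the others. The neutrophil marker Ngp did not follow, at 68.45 and 85.67 there and highest on wild-type sham 2, at 90.46. The part of neutrophils was not tested. The 4 matched of 6 neutrophil markers, with Camp at most 5.95 on any array, summed to 192 to 669 in knockout sham and 124 to 336 in banded arrays. With banding in knockout Mt2 was at 0.85 (SE 0.56, adjusted p = 0.409), Mt1 at -0.21 and Txnip at 0.46, and none passed. The dimmer probe set of Mt1, with a mean of 81.7, lay on the other side, at 0.69 in knockout (adjusted p = 0.696 in limma over all single-gene probe sets).

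**Figure D4:**
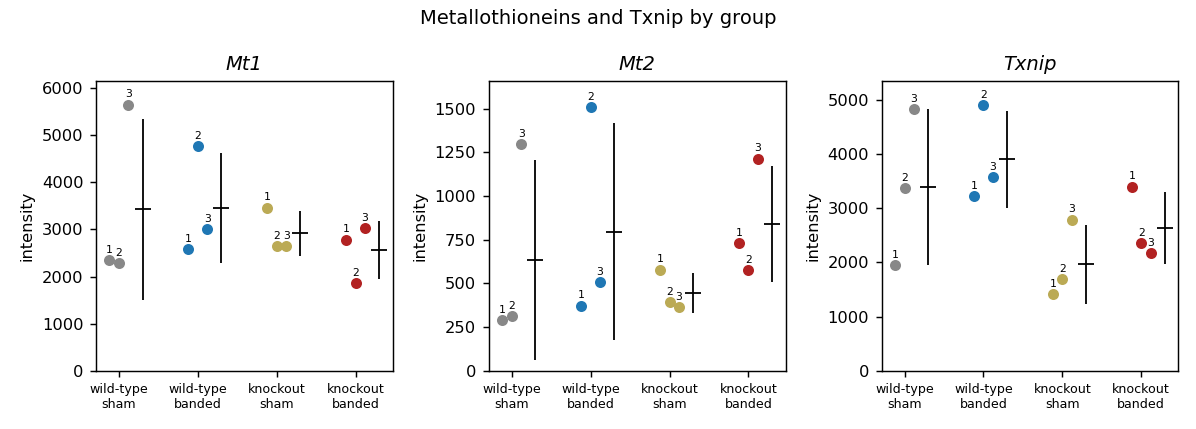
Intensity of Mt1, Mt2 and Txnip on each array (points, numbered by replicate, coloured by group) with the group mean and SD (black bar, n = 3); every axis starts at 0. Wild-type sham 3 and wild-type banded 2 are the highest arrays for all 3 genes, at 5649 and 4768 for Mt1.

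In wild-type hearts no member passed for banding. Limma called 0 of the 34, and 1, Gstm1, had an unadjusted p under 0.05, beside 0% of all genes past the adjusted threshold and 4.89% with an unadjusted p under 0.05. After Gstm1, the smallest p-values belonged to Gpx3 and to Gstm2, at -0.19 (SE 0.11, adjusted p = 0.921). The differences of the 34 members ran from -0.39 to 0.63 with a median of -0.03, beside -0.02 for all genes. Without wild-type sham 3 the wild-type difference of Gstm1 was -0.25, and that of Gstm2 was -0.29, while Gstm2 was at -0.11 without wild-type sham 2. Leaving out any single array, wild-type sham 1 and wild-type banded 3 included, left 0 members passing.

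Averaged over both genotypes, with 6 banded against 6 sham arrays, Gstm1 fell by 0.50 (SE 0.10, adjusted p = 0.0358), and with its probe sets averaged the difference was -0.24 (adjusted p = 0.284). Gstm1 was the 1 member of 34 that passed, beside 1.6% of all genes called and 0.669% called lower. An unadjusted p under 0.05 was found for 13 members, beside 18.2% of all genes. Gstm1 was also the 1 member whose banded and sham arrays did not overlap, as was found for 0.751% of all genes in the lower direction. Gstk1 was at -0.59 (SE 0.14, adjusted p = 0.0597) and Gstm2 at -0.29 (SE 0.08, adjusted p = 0.0911). Without the array labelled knockout banded 1 the count was 4, with Gstm1 at -0.57, Gstk1 at -0.74, Gpx1 at 0.49 and Gpx8 at 0.31, beside 9.12% of all genes (4.36% higher and 4.76% lower). The count was 1 without wild-type sham 1 and 0 without any of the other 10 arrays. Over all genes 164 passed without wild-type sham 1, and 5 to 108 without each of those 10, from 175 with every array.

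Knockout and wild-type hearts were compared to ask how the antioxidant genes depend on apelin at rest and under load. In sham hearts limma called 0 of 34 members, beside 0% of all genes, and 1 had an unadjusted p under 0.05, beside 5.22% of all genes. That was Txnip, at -0.75 (SE 0.32, adjusted p = 0.93), with overlapping arrays, and it was at -1.10 without wild-type sham 1 and -0.45 without wild-type sham 3. Prdx2 was at 0.20 (SE 0.10), with 3487 to 4286 in wild type and 4403 to 4476 in knockout, without overlap, as for 5.5% of all genes in the higher direction. Without wild-type sham 2 the Prdx2 difference was 0.12. Gpx7 was at -0.24 (SE 0.16), and at -0.13 without knockout sham 3. Without the array labelled knockout banded 1 limma again called 0 of 34 members, beside 0.00916% of all genes. Averaging its probe sets turned the Prdx2 difference to -0.05.

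In banded hearts limma also called 0 of 34 members, beside 0% of all genes, while 9 had an unadjusted p under 0.05, beside 14.6% of all genes. The smallest p-values belonged to Gstk1 (-0.77, SE 0.20, adjusted p = 0.155), Sod3 (0.65, SE 0.18, adjusted p = 0.161) and Gstp1 (-0.41, SE 0.11, adjusted p = 0.169). The arrays did not overlap for 8 members lower in knockout, beside 8.95% of all genes, and for 3 higher in knockout, Gss, Gsr and Sod3, beside 10.1%. The 8 included 5 transferases, Gstm1, Gstm2, Gstp1, Gstt1 and Gstk1, with Txn2, Sod1 and Cyba.

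In this comparison 7 members passed without the array labelled knockout banded 1, beside 6.11% of all genes, with 3 higher (3.22% of all genes) and 4 lower (2.89%). Gstk1 was lower by 1.07 on the log2 scale (-1.07, SE 0.12, adjusted p = 0.00103), against -0.61 without knockout banded 2 and -0.62 without knockout banded 3 (adjusted p = 0.469 and 0.475). Gstt1 was at -0.60, Gstm1 at -0.51 and Gstp1 at -0.49. Sod3 was at 0.80 (SE 0.18, adjusted p = 0.0237), Gsr at 0.59 and Gpx8 at 0.54. The Sod3 difference was 0.47 without wild-type banded 3 and, over all arrays, 0.33 with its probe sets averaged, and passed in neither. This comparison shares its knockout banded arrays with that of banding in knockout, so the same arrays enter both. The summed heart muscle markers did not overlap here either, at 75840 to 94250 in wild-type banded and 65800 to 67250 in the arrays labelled knockout banded. The Actb ratio was 0.079 to 0.28 in wild-type banded, above the knockout banded arrays at -0.22 to -0.17, and the part of these measures was not tested.

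**Figure D5:**
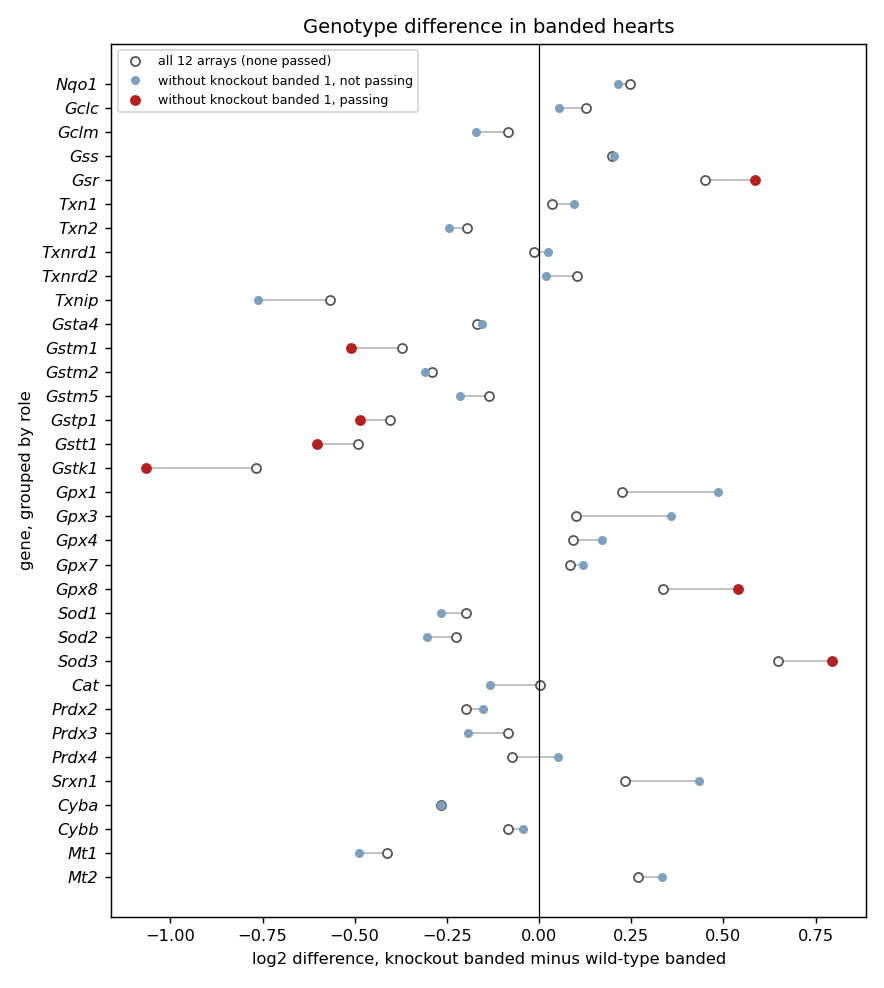
Log2 difference, knockout banded minus wild-type banded, of the 34 tested genes (rows, grouped by role), with all 12 arrays (open circles) and without the array labelled knockout banded 1 (filled circles, red where the adjusted p was under 0.05). None passed with all arrays; without that array Gstk1, at -1.07, Gstt1, Gstm1 and Gstp1 are red on the left and Sod3, at 0.80, Gsr and Gpx8 on the right.

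Averaged over surgery limma called 0 of 34 members, beside 0% of all genes, and 7 had an unadjusted p under 0.05, beside 10.6% of all genes. Gstp1 was at -0.25 (SE 0.08, adjusted p = 0.393), Txnip at -0.66 (SE 0.22, adjusted p = 0.398) and Cyba at -0.19 (SE 0.07, adjusted p = 0.414). Without the array labelled knockout banded 1, Gstk1 passed, at -0.50 (adjusted p = 0.0174), beside 1.29% of all genes. For the interaction limma called 0 of 34 members, beside 0% of all genes, and 7 had an unadjusted p under 0.05, beside 9.11% of all genes. The 3 smallest p-values were those of Sod3, Gstk1 and Gstt1, with Gstt1 at -0.62 (SE 0.21, adjusted p = 0.442). For the interaction 2 members passed without the array labelled knockout banded 1, Gstk1 and Gpx8, beside 1.91% of all genes.

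A further list of 77 genes of the same pathways, among them other transferases, NADPH-making enzymes, ferritins and the Nrf2 regulators, was read in the same fit. Of these 60 were tested, and with banding in knockout 1 rose, 1 fell and 58 did not pass, beside 2.05% of all genes higher and 1.76% lower, with a median of -0.06. Gstm7, a neighbour of Gstm1 in the mu-class cluster, read 579, 588 and 463 in knockout sham and 386, 267 and 337 in the arrays labelled knockout banded and fell by 0.70 (SE 0.15, adjusted p = 0.0298). Mafk, a small Maf partner of Nrf2, read 247, 273 and 196 in sham and 303, 488 and 602 in banded arrays and rose by 0.88 (SE 0.22, adjusted p = 0.0448). Maff, another small Maf gene, rose by 1.19 averaged over genotypes (SE 0.25, adjusted p = 0.0386), where it was the 1 gene of the 60 that passed. In wild-type hearts and in the genotype comparisons and the interaction limma called 0 of the 60. An unadjusted p under 0.05 was found for 14 of the 60 with banding in knockout (beside 21.1% of all genes), 11 averaged over genotypes (18.2%) and 3 in wild type (4.89%). Between genotypes it was found for 6 in sham (5.22%), 9 in banded hearts (14.6%) and 7 averaged over surgery (10.6%), and for the interaction for 7 (9.11%). The counts of 2 and 1 were 10 and 7 without the array labelled knockout banded 1, beside 13.2% and 9.12% of all genes. They were 0 without knockout banded 2 or 3 or any knockout sham array, where 9 to 88 of all genes passed in knockout and 5 to 41 averaged. The count in knockout was 1 without wild-type sham 1 or 2 or any wild-type banded array, beside 315 to 374 of all genes. The averaged count was also 0 without wild-type sham 2 or any wild-type banded array, beside 18 to 108 of all genes.

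Promoters were read to show where the letters of an antioxidant response element lie in genes of the list. RefSeq windows of 250 bases before to 50 after a listed start, build GRCm38.p6, were found for 34 of the 40 genes and searched on both strands for TGACNNNGC, the core of the antioxidant response element. It was found in 8 of the 34 genes, or 23.5%, beside 14% of the 27025 genes with a window, a gene with several starts being counted once. The matches are shown with 10 bases on each side, 5′ to 3′ on the gene's strand, with the match in capitals (in the reverse direction for Gclm, Txnrd1, Sod1, Prdx1 and Srxn1).
Gclm: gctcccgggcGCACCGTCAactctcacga
Txnrd1: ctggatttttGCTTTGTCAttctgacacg
Gsta3: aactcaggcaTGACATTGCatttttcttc
Gstm5: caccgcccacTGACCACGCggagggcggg
Sod1: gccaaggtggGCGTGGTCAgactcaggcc
Prdx1: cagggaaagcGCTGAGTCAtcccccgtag
Srxn1: gcagtgggcaGCTAGGTCAgagtgagaca
Mt2: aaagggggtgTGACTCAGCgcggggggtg
These stretches lie at chr3:122245413-122245441, chr10:82859104-82859132, chr1:21240454-21240482, chr3:107895802-107895830, chr16:90220696-90220724, chr4:116685456-116685484, chr2:152105542-152105570 and chr8:94172529-94172557, in the order shown, all on the plus strand. The Txnrd1 match was absent from the windows of its other listed starts. By the probe set used, Srxn1, at 0.49, Txnrd1, at 0.04, and Mt2, at 0.85, were above 0 with banding in knockout. Gclm, Gstm5 and Sod1 were at -0.32 to -0.13. Another probe set of Srxn1, Gclm and Sod1 lay on the other side of 0, at -0.13, 0.18 and 0.05 in that order. Gsta3, under the filter, was at 0.07 in the fit of all single-gene probe sets. The probe sets shared by Prdx1 and Gm21399 were at -0.39 to 0.06. Gstk1, Gstm1 and Nqo1 had a window without the match, and no window was listed for Sod3.

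The metallothionein promoters are shown because Mt1 and Mt2 were highest on the same arrays. Metal response elements share the letters TGCRCNC, where R is A or G, searched here on both strands as TGCACNC and TGCGCNC. Either was found in 13 of the 34 genes, or 38.2%, beside 28.2% of all genes with a window. A match to TGCGCNC in Gclm overlaps its match to TGACNNNGC. The 150 bases before the listed starts follow, at chr8:94178939-94179088 for Mt1 and chr8:94172468-94172617 for Mt2, both on the plus strand, with these matches in capitals (reverse direction for the second of Mt2), and further matches of both genes lie outside the stretches shown. The TATA box letters TATAAA were searched too and were found in 20.6% of the 34 genes and 15.7% of all genes.
Mt1: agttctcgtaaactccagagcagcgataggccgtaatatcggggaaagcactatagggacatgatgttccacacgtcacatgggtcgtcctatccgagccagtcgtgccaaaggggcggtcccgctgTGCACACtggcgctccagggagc
Mt2: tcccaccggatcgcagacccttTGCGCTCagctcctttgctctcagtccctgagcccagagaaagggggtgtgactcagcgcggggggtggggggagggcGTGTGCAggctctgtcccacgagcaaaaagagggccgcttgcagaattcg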

How the data were processed

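Total RNA from hearts was extracted with Trizol and labelled with biotin by the standard Affymetrix protocol, per the labels' protocols. The table deposited by the authors holds a linear intensity for 45101 probe sets on 12 arrays, and the sources used here do not name the software or scaling behind it. All arrays share the same trimmed mean, so no further scaling was applied, and the number of arrays limits the precision. After 64 control probe sets were left out, the platform annotation gave 1 gene for 34945 probe sets, several for 932 and none for 9160.

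Intensities were transformed as log2(value + 16), which understates changes of dim probe sets. A model with 4 group means was fitted to 10916 genes and 12 arrays in limma 3.58.1 (R 4.3.3) with moderated variances that follow a trend in mean level (eBayes, 8 residual degrees of freedom) and gave 7 two-sided contrasts. The fit was tested on simulated data. The members, the further list, the markers and the rule for named genes (every member that passes, or else the 3 with the smallest p, plus a fixed set given array by array) were chosen with earlier results of these data known. The rule's fixed set includes Prdx6, which has no listed probe set. Settings tried were the filter, the pseudocount (1 and 64), quantile and median scaling, eBayes without trend, averaged probe sets per gene, every single-gene probe set, fits of the compared groups only, dropping each array in turn and the replicate block.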

Additional observations from a re-analysis of the deposited data

How the results depend on the processing

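Counts of members passing were small, and several settings changed them. For banding in knockout the count of 3 became 1 with no filter, with median scaling, in eBayes without trend and with all single-gene probe sets tested, and 0 in a fit of only the groups compared. With quantile scaling 3 members passed, 2 of them the same and Sod3 not among them (0.69, adjusted p = 0.0521), and with averaged probe sets 2 passed, 1 of them the same. Sod3 also lost its call with no filter, median scaling, no trend, averaged probe sets, every single-gene probe set, only the groups compared and the replicate block. Averaged over genotypes the count of 1 became 0 with no filter, median scaling, no trend, averaged probe sets and every single-gene probe set. In the further list the count of 2 in knockout became 1 with no filter, quantile scaling, median scaling and no trend, and 0 with averaged probe sets, every single-gene probe set and only the groups compared. Its averaged count of 1 became 0 with no filter, no trend and all single-gene probe sets and 2 with the upper 40% of genes. With the replicate block the members' counts were 1 and 0, and the further list's count in knockout was 0. The labels give no meaning to the shared replicate numbers, and deviations of same-numbered arrays correlated at -0.281 to 0.233, with 0 of 12 arrays correlating best with their own number in every other group. Calls over all genes for banding in knockout, 416, became 212 with no filter, 151 with every single-gene probe set, 74 in the groups compared and 237 with the block. The causes were not tested.

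Leaving out each array in turn, members passing ranged from 0 to 11 for banding in knockout, 0 to 4 averaged over genotypes, 0 to 7 for knockout against wild type in banded hearts, 0 to 1 averaged over surgery and 0 to 2 for the interaction. The further list ranged from 0 to 10, 0 to 7 and, in banded hearts, 0 to 5. Gstk1 in knockout lay at -1.31 to -0.85 and among the settings that kept every array lost its call in the fit of only the groups compared (adjusted p = 0.0712). Of the named differences, Prdx2 in sham reversed, to -0.0496, with averaged probe sets per gene.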
